A study of Mus musculus with 16 samples.

Results

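The comparison set H3K4me3 against H3K27me3 in mouse embryonic stem cells (mESCs) with a Mettl14 knockout, and asked which genes carried 1 mark, both marks or neither. Its members were the 4 knockout peak lists of these marks, 2 per mark, out of 16 samples in the series, 12 of which have a peak list. Each of 21887 protein-coding genes was classed by peaks that came within 1 kb of either end of its gene span on mm10. A mark counted as carried where both knockout lists of that mark called the gene, and as lacked where neither did. Genes called in 1 of the 2 lists of a mark were counted apart as split.

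The knockout samples are titled Mettl14 CKO and their counterparts Mettl14 Control, all from mESCs of strain C57BL/6. All cells were grown in serum medium with LIF, the GSK3 inhibitor CHIR99021 and the MEK inhibitor PD0325901, which together hold mESCs in an undifferentiated state. Knockout and control each had 2 libraries of H3K4me3, 2 of H3K27me3 and 2 of H3K27ac, and the last are used below as a further readout. The 4 input libraries and the Mettl3 knockout that the design text names were not analysed here. The sources used here do not give how the Mettl14 allele was deleted, which Cre was used or whether the cells are 1 clone. Since no label says that replicates came from separate cultures, each p-value covers only a spread between samples that may be technical. In the labels of the H3K27ac libraries the antibody named is that against H3K4me3, and these libraries were taken for the mark in their titles.

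H3K4me3 is written by the SET1 and MLL enzymes and marks the promoters of active genes, mostly in CpG islands. H3K27me3 is written by Polycomb repressive complex PRC2 and marks silent developmental genes, where Polycomb complex PRC1 also binds. In embryonic stem cells many promoters of lineage regulators are known to hold both marks, a state called bivalent, and growth with inhibitors of GSK3 and MEK is known to lower H3K27me3 at such promoters. METTL14 works with METTL3, the enzyme that writes m6A on RNA.

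Promoters of 5 genes are shown so that the DNA under each class of peak can be read. Bcorl1, a corepressor gene (chrX:48341108-48341407, + strand), and Zbtb42, a zinc finger gene (chr12:112678590-112678889, + strand), carried both marks. Brd2, a reader of acetylated histones (chr17:34119851-34120150, - strand), carried H3K4me3 alone, and Neurod2, a neuronal transcription factor (chr11:98329596-98329895, - strand), carried H3K27me3 alone. Olfr1, an olfactory receptor gene (chr11:73399446-73399745, - strand), carried neither. The sequences are from RefSeq, build GRCm38.p6, and run 5′ to 3′ over 250 bases before and 50 after the start of transcription, with every CG in capitals.
Bcorl1: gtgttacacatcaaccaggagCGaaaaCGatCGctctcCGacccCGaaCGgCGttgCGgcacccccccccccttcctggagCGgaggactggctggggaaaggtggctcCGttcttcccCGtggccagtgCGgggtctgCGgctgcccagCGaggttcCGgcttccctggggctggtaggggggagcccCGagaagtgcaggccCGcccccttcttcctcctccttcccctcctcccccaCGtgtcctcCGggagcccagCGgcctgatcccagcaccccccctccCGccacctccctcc
Zbtb42: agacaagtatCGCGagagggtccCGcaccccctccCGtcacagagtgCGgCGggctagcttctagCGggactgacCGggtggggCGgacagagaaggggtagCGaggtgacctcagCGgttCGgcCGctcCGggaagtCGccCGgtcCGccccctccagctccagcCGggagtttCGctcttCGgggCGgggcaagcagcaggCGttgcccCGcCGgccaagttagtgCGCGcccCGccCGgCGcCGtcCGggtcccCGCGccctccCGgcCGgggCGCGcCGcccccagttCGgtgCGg
Brd2: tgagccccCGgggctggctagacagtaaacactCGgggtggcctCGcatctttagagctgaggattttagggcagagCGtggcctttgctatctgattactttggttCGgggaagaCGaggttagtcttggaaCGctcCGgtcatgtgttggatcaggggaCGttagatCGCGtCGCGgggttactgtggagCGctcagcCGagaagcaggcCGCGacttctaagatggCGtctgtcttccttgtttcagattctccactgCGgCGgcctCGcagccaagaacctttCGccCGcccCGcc
Neurod2: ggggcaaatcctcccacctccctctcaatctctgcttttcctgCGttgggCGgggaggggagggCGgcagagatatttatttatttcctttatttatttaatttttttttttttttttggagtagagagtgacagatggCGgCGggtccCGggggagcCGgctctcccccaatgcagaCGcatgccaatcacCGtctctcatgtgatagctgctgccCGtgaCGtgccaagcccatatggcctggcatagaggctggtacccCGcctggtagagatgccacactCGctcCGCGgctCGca
Olfr1: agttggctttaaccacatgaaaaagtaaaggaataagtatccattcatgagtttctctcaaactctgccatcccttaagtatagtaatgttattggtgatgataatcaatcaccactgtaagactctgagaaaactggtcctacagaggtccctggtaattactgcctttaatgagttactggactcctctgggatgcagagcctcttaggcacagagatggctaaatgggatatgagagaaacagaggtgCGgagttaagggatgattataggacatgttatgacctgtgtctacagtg
The motif CG reads the same on both strands, and it occurred 21 times at Bcorl1, 40 times at Zbtb42, 24 times at Brd2, 16 times at Neurod2 and 1 time at Olfr1. Among all 32851 RefSeq mouse promoters of this length, 94.6% held at least 1 CG and the median was 7, with quartiles of 3 and 20. All 300 bases of the Bcorl1 promoter lay under H3K27me3 peaks in both knockout lists, and 300 and 297 bases lay under H3K4me3 peaks. At Zbtb42 the H3K4me3 peaks covered 112 and 300 bases and the H3K27me3 peaks 123 and 300. These genes were picked as the first of each class whose promoter lay under the peaks of every list of its marks, and Olfr1 as the first olfactory receptor gene with neither. The promoter table held 77.7% of the genes with both marks and 72.9% of those with H3K27me3 alone, which is under the 80% set as the minimum, so a comparison of sequence between the classes is void.

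The H3K4me3 lists held fewer peaks than the H3K27me3 lists, and more of them lay at genes. The knockout H3K4me3 lists had 8131 and 8055 peaks over 8.13 and 7.89 Mb, and the knockout H3K27me3 lists had 11349 and 11446 peaks over 10.1 and 10.5 Mb. Peaks at an end of a protein-coding gene made up 71.8 ± 0.556% of the H3K4me3 lists against 27.7 ± 0.535% of the H3K27me3 lists (SD, n = 2 each), a difference of 44.1 percentage points. The H3K4me3 lists called 6749 and 6758 protein-coding genes, or 30.8% and 30.9%, and the H3K27me3 lists called 2778 and 2856, or 12.7% and 13.0%. The means were 6753.5 ± 6.36 against 2817 ± 55.2 genes (SD, n = 2 each), a log2 difference of 1.26 or 2.398-fold. In both measures the lists of the marks did not overlap, with an exact two-sided permutation p = 0.333, the smallest that 2 lists against 2 allow. A peak of 501 bp, the narrowest in any list, made up 30.7 ± 0.530% of H3K4me3 and 55.6 ± 0.818% of H3K27me3 peaks (SD, n = 2 each). The widest peaks were 5277 and 5836 bp for H3K4me3, against 16594 and 18662 bp for H3K27me3.

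Agreement between the replicate lists was lower for H3K27me3. Of the genes that at least 1 list called, both lists called 63.4% for H3K4me3, 5242 genes or 24.0% of all protein-coding genes. For H3K27me3 both lists called 43.8%, 1717 genes or 7.84% of all. Called in 1 list alone were 3023 genes for H3K4me3 and 2200 for H3K27me3. The deposited lists hold no read numbers, so the depth behind these calls is unknown.

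Both marks were carried by 148 genes, 0.676% of all protein-coding genes. H3K4me3 alone was carried by 4846 genes (22.1%), H3K27me3 alone by 1274 (5.82%) and neither mark by 10779 (49.2%). The other 4840 genes (22.1%) were split for at least 1 mark. Among the split genes, 383 had 1 call of 2 for each mark, 248 had both H3K4me3 lists and 1 H3K27me3 list, and 295 had 1 H3K4me3 list and both H3K27me3 lists. The 148 genes made up 2.82% of the genes with H3K4me3, where H3K27me3 was carried by 7.84% of all genes. They made up 8.62% of the genes with H3K27me3, where H3K4me3 was carried by 24.0% of all genes. In single lists the same order held. Of the genes in an H3K27me3 list 16.7% to 19.7% were also in an H3K4me3 list over the 4 pairs of lists, against 30.8% to 30.9% of all genes. No test was made of these shares. The count of 148 depends on the calls required and on the window: it was 1074 with a call in at least 1 list of each mark, 65 with windows of 500 bp and 331 with windows of 2500 bp. With 1 list left out, and so fewer calls required, it was 304 without H3K4me3 replicate 1, 287 without H3K4me3 replicate 2, 273 without H3K27me3 replicate 1 and 271 without H3K27me3 replicate 2, and H3K27me3 alone stood at 2089 and 2028 genes without H3K27me3 replicate 1 and 2. In a population of cells, peaks of both marks at a gene can come from the same chromosomes or from different cells or alleles, which cannot be told apart here.

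Genes of the other types below carried both marks at smaller shares than the 0.676% of protein-coding genes, some of them on 1 or 2 genes. Of 12727 lncRNA genes 28 carried both (0.220%), 674 H3K4me3 alone (5.30%) and 403 H3K27me3 alone (3.17%), against 22.1% and 5.82% of protein-coding genes for the single marks. Of 1228 miRNA genes 2 carried both (0.163%), 72 H3K4me3 alone (5.86%) and 38 H3K27me3 alone (3.09%). Among 408 tRNA genes the counts were 1, 62 and 3, and among 1340 snoRNA genes, which mostly lie in introns of host genes, 0, 120 and 2. Of 9944 pseudogenes 1 carried both, 30 H3K4me3 alone and 30 H3K27me3 alone. Such genes share windows with neighbouring protein-coding genes in part, and this overlap was not removed. By chromosome, genes with both marks made up 0.207% of protein-coding genes on X (2 of 966) and 1.42% on chromosome 19 (10 of 705), and on Y no gene of 256 carried either mark alone or both.

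The genes with both marks had narrower peaks than the genes with 1 mark. The widest H3K4me3 peak of a gene had a median of 831 and 776.5 bp at the 148 genes, against 1176 and 1145 bp at genes with H3K4me3 alone. The widest H3K27me3 peak had a median of 980 and 972.5 bp, against 1137 and 1250 bp at genes with H3K27me3 alone. The H3K4me3 call rested on a peak of 501 bp at 25.7% and 26.4% of the 148 genes, against 8.48% and 8.67% of genes with H3K4me3 alone. For H3K27me3 these shares were 18.2% and 18.9%, against 24.2% and 20.6%. The median gene span was 26.9 kb with both marks, 23.5 kb with H3K4me3 alone, 18.95 kb with H3K27me3 alone and 11.8 kb with neither.

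**Figure D1:**
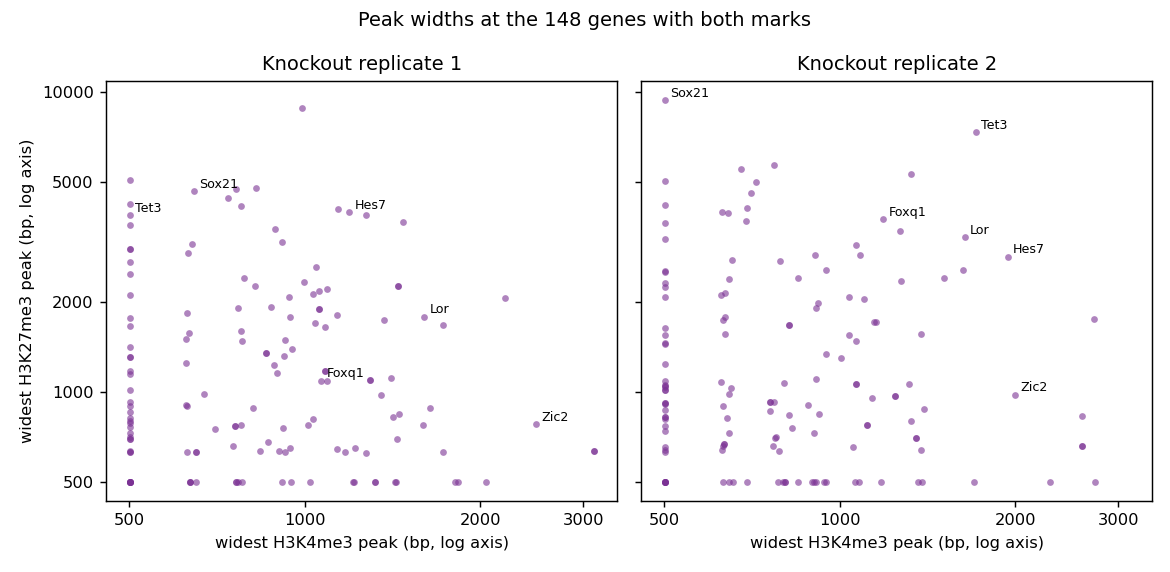
Each point is 1 of the 148 genes with both marks, with the width of its widest H3K4me3 peak on the x axis and of its widest H3K27me3 peak on the y axis (bp, log axes), in each knockout replicate. The column of points at the left edge holds genes whose H3K4me3 call rests on a peak of 501 bp, and Sox21 and Tet3 stand at the top in replicate 2.

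Ranked by the narrowest of the 4 widths, Lor, Hes7 and Foxq1 came first among genes with both marks. Lor encodes loricrin of the cornified skin envelope, and its H3K4me3 peaks of 1604 and 1638 bp overlapped H3K27me3 peaks of 1781 and 3273 bp on chromosome 3. Hes7, a bHLH repressor of the segmentation clock (chr11:69118906-69124054), had H3K4me3 peaks of 1191 and 1939 bp and H3K27me3 peaks of 3974 and 2815 bp. Both marks thus stood at Hes7 in all 4 knockout lists, which the class requires. None of the 4 control lists of these marks had a peak there. These control lists likewise had no peak at 33.8% of the genes with both marks in knockout cells and at 75.6% of all genes. Foxq1, a forkhead factor (chr13:31558170-31560976), had H3K4me3 peaks of 1066 and 1188 bp and H3K27me3 peaks of 1088 and 3767 bp. In the control lists Foxq1 had H3K27me3 peaks of 870 and 2253 bp and no H3K4me3 peak, where 87.0% of all genes had no control H3K4me3 call.

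Bcorl1, whose promoter is printed above, had an H3K4me3 peak of 1059 bp (chrX:48341082-48342140) inside an H3K27me3 peak of 2171 bp (chrX:48340934-48343104) in replicate 1. In replicate 2 its H3K4me3 peak of 1084 bp lay inside an H3K27me3 peak of 2864 bp. Flrt1, a cell surface gene, had H3K4me3 peaks of 1273 and 1065 bp and H3K27me3 peaks of 3880 and 1481 bp at the same end. Plxna1, a semaphorin receptor gene, had 1292 and 1068 bp of H3K4me3 and 1091 and 1063 bp of H3K27me3. Nfic, a nuclear factor I gene, had 1091 and 1038 bp of H3K4me3 and 2205 and 1543 bp of H3K27me3, next to each other in replicate 1 and overlapping in replicate 2. Of the 10 genes ranked first 7 had no H3K27ac peak at their ends in either knockout list, and Lor and Ndrg4 each had 1 of 501 bp in a single list. The 7 of 10 do not set these genes apart, since 15389 of all 21887 protein-coding genes also had no such peak in either list.

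At some genes the marks stood far apart. Ndrg4, a gene of nervous tissue, had H3K4me3 of 1092 and 1036 bp at its higher-coordinate end and H3K27me3 of 1089 and 2065 bp at its lower end, and Aif1l, an actin-binding protein gene, had H3K4me3 of 1032 and 1154 bp and H3K27me3 of 2121 and 1715 bp in the same arrangement. Over the 148 genes, an H3K4me3 peak overlapped an H3K27me3 peak at 83 in each replicate (56.1%), stood apart at the same end at 40 and at opposite ends at 25. Both replicates showed an overlap at 59 genes and at least 1 replicate at 107 (72.3%), and 17 had the marks at opposite ends in both. The median overlap was 501 bp in each replicate, and peaks apart at the same end were separated by a median of 437 and 557 bp. The H3K4me3 peak lay wholly inside an H3K27me3 peak at 27 and 28 genes, and the reverse held at 12 and 7. The term "both marks" below thus means marks at the same gene, and not always on the same stretch of DNA.

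At the centres of H3K4me3 peaks of genes with both marks, an H3K27me3 peak was present at 44.2% and 46.4% of 138 centres. This share was 19.6% and 18.8% at 2 kb to the lower-coordinate side and 18.8% in each replicate at 2 kb to the other. At 10 kb it was between 2.17% and 5.80%. At H3K4me3 peaks of genes with H3K4me3 alone the H3K27me3 share 10 kb away was 0.269% to 0.587%. At the centres of H3K27me3 peaks of genes with both marks, H3K4me3 was present at 26.8% and 28.8%. The shares near the centres follow in part from the classes, which were defined by windows of 1 kb, and are given as a description.

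**Figure D2:**
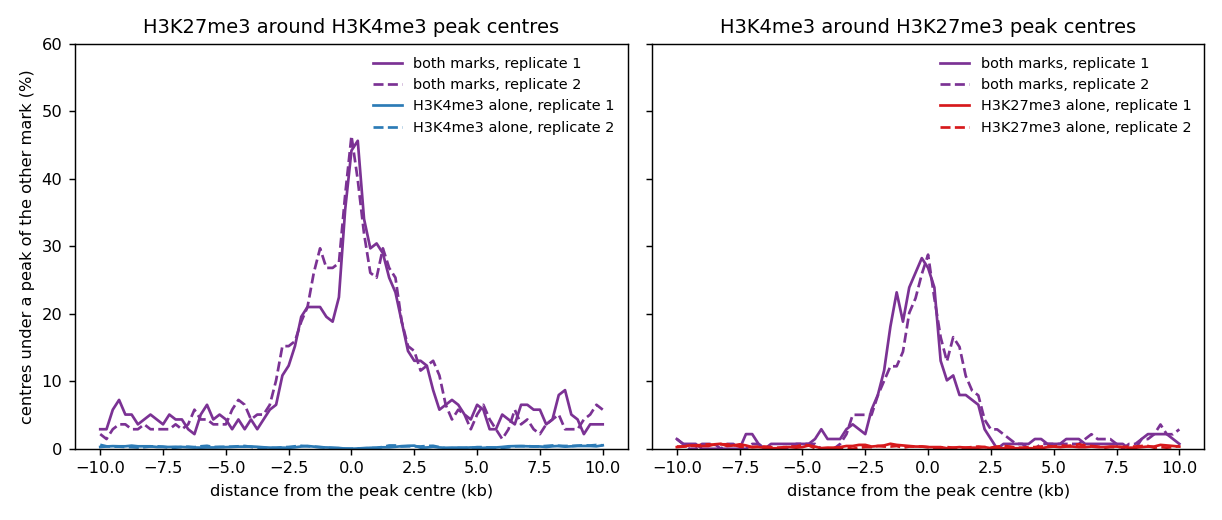
The share of peak centres (y axis, %) that lay under a peak of the other mark at each distance (x axis, kb, in genome orientation) is drawn for H3K27me3 around H3K4me3 centres at the left and H3K4me3 around H3K27me3 centres at the right, with replicates as solid and dashed lines. Genes with both marks peak near the centre, at 44.2% and 46.4% at the left and 26.8% and 28.8% at the right, and the lines of the classes with 1 mark lie near 0.

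Ranked by the narrower of the 2 widths, the first genes with H3K4me3 alone had peaks of 3 kb and more. Brd2 had peaks of 5277 and 5836 bp, the widest in both lists. Tbx3, a T-box factor of the naive state, had 4709 and 4209 bp. Klf4, a core factor of naive pluripotency, had 3431 and 4424 bp, and Foxo3, a forkhead factor, 3469 and 3626 bp. Cbx3, an HP1 protein gene, and Hnrnpa2b1, an RNA-binding protein gene, share a peak of 4634 and 4163 bp at their adjacent ends. Zbtb37 had 4256 and 3572 bp. Ptma had 3740 and 3567 bp and Rpl3, a ribosomal protein gene, 3681 and 3560 bp. Of these genes Foxo3 had no H3K27ac peak at its ends in either knockout list. Mettl14 itself fell in this class, with H3K4me3 peaks of 1074 and 1295 bp, and Mettl3 had neither mark. A peak at a gene end cannot show whether the coding sequence is deleted, so it does not check the knockout label.

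Ranked in the same way, the first genes with H3K27me3 alone had wider peaks than these. Lhx5, a LIM homeobox factor of the developing brain, had peaks of 16594 and 11362 bp. Neurod2 had 11941 and 10853 bp, and the homeobox genes Lbx1, Nkx2-2 and Evx1 had 10875 and 8447 bp, 10759 and 7636 bp, and 9281 and 7454 bp. Dll4, a Notch ligand gene, had 9644 and 9140 bp. Tmem59l had 10214 and 12642 bp, and Insrr, a receptor gene of the insulin receptor family, 7811 and 8538 bp. None of these genes had an H3K4me3 peak at its ends in either knockout list, which the class requires. An H3K27me3 peak stood at each end of the gene at 19 and 16 of the 148 genes with both marks (12.8% and 10.8%), and at 242 and 252 of the 1274 genes with H3K27me3 alone. An H3K4me3 peak stood at each end at 5.41% and 6.08% of genes with both marks, and at 5.26% and 4.95% of genes with H3K4me3 alone.

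Gene lists divided between the marks, and the lists are described by counts beside those of all genes. The lists were chosen with results of these data known, and no list was tested. In all, 22 of the 148 genes with both marks (14.9%) belonged to at least 1 of the lists below. This is similar to the share of all genes, since the lists together hold 3284 of the 21887 protein-coding genes.

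Pluripotency genes mostly carried H3K4me3 alone. Of 28 naive and core genes 17 carried H3K4me3 alone, 60.7% against 22.1% of all genes, 2 carried H3K27me3 alone and none carried both. The H3K4me3 lists called 17 and 18 of them and the H3K27me3 lists 4 and 4. Nanog had H3K4me3 peaks of 3162 and 3981 bp, Pou5f1 (Oct4) 2618 and 2825 bp and Klf2 3227 and 3015 bp, with no H3K27me3 peak at their ends. The 2 genes with H3K27me3 alone were Esrrb, an orphan nuclear receptor of the naive state (767 and 501 bp), and Dppa3, also called Stella (501 and 501 bp). Neither had an H3K4me3 peak at its ends in any knockout or control list. Peaks inside a gene span and over 1 kb from its ends were not counted. The count of 2 was 1 with windows of 500 bp and 3 with windows of 2500 bp. It was 4 with calls in at least 1 list and 0 in the wider 50% of each list. Of the 12 genes listed as mESC markers 10 carried H3K4me3 alone, and Esrrb was 1 of the other 2. None of 10 fibroblast markers carried either mark in both lists, with 6 carrying neither and 4 split. Of 9 primitive endoderm markers Foxa2 and Sox7 carried H3K27me3 alone, 4 were split and 3 carried neither. Of 9 trophectoderm markers Eomes carried both, Tead4 H3K4me3 alone and Cdx2 and Gata3 H3K27me3 alone, with 3 split and 2 carrying neither. Of all genes 5.82% carried H3K27me3 alone, 22.1% were split and 49.2% carried neither. A mark at a marker gene is not expression.

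Of 17 formative and primed genes 1 carried both marks, 5 H3K4me3 alone and 5 H3K27me3 alone. Each single-mark class made up 29.4% of the list, against 22.1% of all genes for H3K4me3 alone and 5.82% for H3K27me3 alone. The gene with both was Zic2, a zinc finger factor, with H3K4me3 peaks of 2487 and 1994 bp and H3K27me3 peaks of 778 and 978 bp. Its neighbour Zic5 had H3K4me3 alone (1049 and 1616 bp). The H3K27me3 class held Pou3f1, also called Oct6 (5760 and 3307 bp), and the growth factor gene Fgf5 (501 and 811 bp), and the H3K4me3 class held Etv4 and Etv5, targets of FGF signalling.

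Hox genes, which set position along the body axis, were mostly marked by H3K27me3. Of 39 genes 24 carried H3K27me3 alone (61.5%, against 5.82% of all genes), 3 carried both marks and 1 carried H3K4me3 alone. The H3K27me3 lists called 33 and 34 of them and the H3K4me3 lists 6 and 9. The genes with both were Hoxa5 and Hoxa6, which share H3K4me3 peaks of 1082 and 848 bp, and Hoxc13, with 1212 and 1316 bp over H3K27me3 peaks of 501 and 1058 bp. In replicate 1 the shared H3K4me3 peak (chr6:52203377-52204458) held an H3K27me3 peak of 501 bp inside it, and in replicate 2 (chr6:52203664-52204511) no H3K27me3 peak overlapped it. Hoxa2 had H3K27me3 of 3039 and 3001 bp and no H3K4me3. Hoxb2 and Hoxd4 carried neither mark, and 9 genes were split, among them Hoxd1, Hoxd8 and Hoxd9 with H3K4me3 in 1 list. The widest peak in the clusters was of H3K27me3, 9221 bp at Hoxb5 and Hoxb6 in replicate 2, where replicate 1 had 3769 bp.

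Other families of lineage transcription factors showed the same order of classes, where 22.1% of all genes carried H3K4me3 alone and 5.82% H3K27me3 alone. Of 14 Nkx genes 7 carried H3K27me3 alone, of 12 LIM homeobox genes 5, of 9 Pax genes 4 and of 6 Gata genes 3, with none in these families carrying H3K4me3 alone or both. With windows of 500 bp the Pax count was 1 of 9. Of 12 Iroquois (Irx) and sine oculis-related homeobox genes 6 carried H3K27me3 alone, while Irx5 carried both (501 and 501 bp of H3K4me3, 4230 and 3656 bp of H3K27me3) and Six4 H3K4me3 alone (2327 and 1789 bp). Of 16 lineage Sox genes 6 carried H3K27me3 alone and Sox21 both, with H3K4me3 of 645 and 501 bp and H3K27me3 of 4664 and 9405 bp. In replicate 1 the marks stood at opposite ends of Sox21, 3165 bp apart. In replicate 2 the H3K4me3 peak lay inside an H3K27me3 peak. Of 32 proneural and lineage bHLH genes 12 carried H3K27me3 alone.

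Of 17 T-box genes 6 carried H3K27me3 alone, Tbx3 H3K4me3 alone and Eomes, a factor of mesendoderm and trophoblast, both. Eomes had H3K4me3 peaks of 1033 and 807 bp. Its H3K27me3 peaks of 810 and 501 bp were narrow. Forkhead genes were divided: of 44, 2 carried both (Foxq1 and Foxo6), 8 H3K4me3 alone and 14 H3K27me3 alone. These single-mark classes were 18.2% and 31.8% of the list, against 22.1% and 5.82% of all genes. Those with H3K4me3 alone included Foxo1 (2273 and 2299 bp) and the cell cycle factor Foxm1 (1549 and 1798 bp), and those with H3K27me3 alone the endoderm factor Foxa2 (4023 and 5018 bp) and Foxc2 (5685 and 4745 bp).

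Ligand and receptor genes of signalling pathways fell in each of the classes. Of all genes 22.1% carried H3K4me3 alone and 5.82% H3K27me3 alone. Of 28 Wnt ligands and inhibitors 9 carried H3K27me3 alone (32.1%), Wnt1 at 6115 and 6710 bp among them. Sfrp1 carried H3K4me3 alone and Wnt4 both (501 and 501 bp of H3K4me3, 1654 and 2502 bp of H3K27me3). The marks stood at opposite ends of Wnt4, 21622 bp apart, in replicate 1 and overlapped in replicate 2. Of 10 Frizzled receptors, to which Wnt ligands bind, 4 carried H3K4me3 alone (40%), with Fzd10 at 3138 and 2399 bp, and Fzd8 carried H3K27me3 alone. Of 26 FGF ligands and receptors 9 carried H3K27me3 alone (34.6%), among them the ligand genes Fgf8 (924 and 3165 bp) and Fgf3 (2247 and 1895 bp). The 2 with H3K4me3 alone were Fgf4, a ligand that mESCs are known to make (2395 and 2493 bp), and the receptor gene Fgfr1 (2273 and 1381 bp).

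Of 26 BMP, GDF and Nodal ligands 4 carried H3K4me3 alone, Nodal at 2007 and 1734 bp among them, and 4 H3K27me3 alone, Bmp4 at 2288 and 2034 bp among them. Each class made up 15.4% of the list, under the 22.1% of all genes for H3K4me3 alone and over the 5.82% for H3K27me3 alone. Of 26 hedgehog and Notch pathway genes 2 carried both, 4 H3K4me3 alone (15.4%) and 7 H3K27me3 alone (26.9%). The genes with both were Hes7 and Smo, the signal transducer of the hedgehog pathway (1276 and 830 bp of H3K4me3, 627 and 757 bp of H3K27me3). The Notch ligand genes Dll1, Dll3 and Dll4 carried H3K27me3 alone, at 11034 and 5848 bp for Dll1, and the receptor gene Notch2 and the effectors Gli2 and Gli3 carried H3K4me3 alone.

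**Figure D3:**
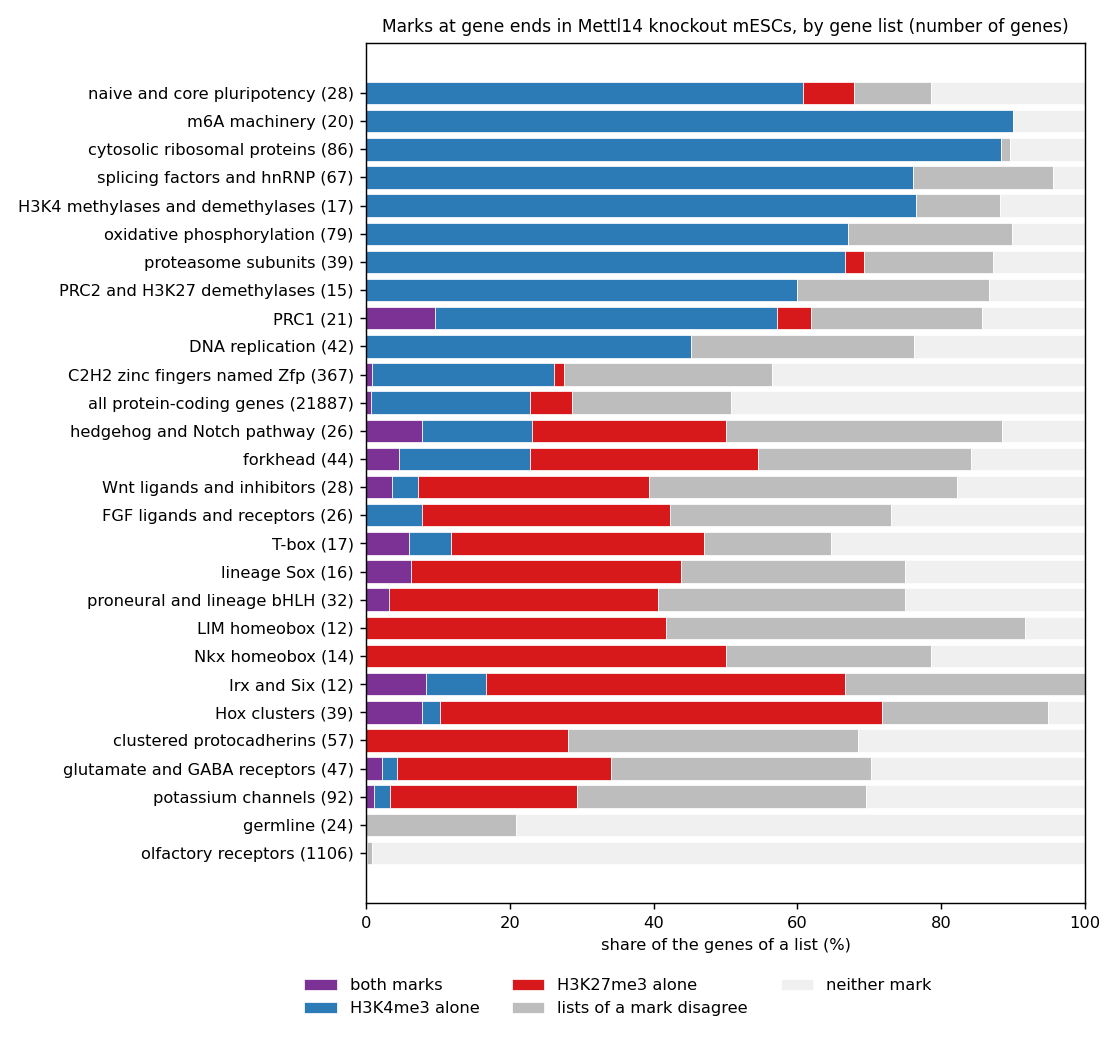
Each bar divides the genes of a list (number of genes in brackets) into shares (x axis, %) with both marks, H3K4me3 alone, H3K27me3 alone, lists of a mark that disagree, and neither mark in knockout cells. Growth and core metabolic lists hold more H3K4me3 alone, as at 76 of 86 cytosolic ribosomal protein genes, lineage factor lists hold more H3K27me3 alone, as at 24 of 39 Hox genes, and 1098 of 1106 olfactory receptor genes carry neither.

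Growth gene lists held a larger share with H3K4me3 alone than the 22.1% of all genes. Outside the cell cycle list they held almost no H3K27me3. Of 86 cytosolic ribosomal protein genes 76 carried H3K4me3 alone, none carried H3K27me3 in any knockout list, and 9 carried neither mark. The H3K4me3 lists called 77 and 76 of them. H3K4me3 alone was carried by 51 of 67 splicing factor genes, 53 of 79 oxidative phosphorylation genes, 26 of 39 proteasome genes, 46 of 78 mitochondrial ribosomal protein genes, 19 of 42 DNA replication genes and 14 of 20 housekeeping genes, with none carrying both. H3K27me3 alone stood at Psmb8, an interferon-induced proteasome subunit gene (2076 and 1775 bp), and at Mrps23 (1771 and 2858 bp). Of 46 cell cycle genes 23 carried H3K4me3 alone, among them Aurka (1946 and 2661 bp) and Ccnb1 (1501 and 1542 bp). The H3K27me3 lists called 7 and 7 of the 46, and both lists called 5 (10.9%, against 7.84% of all genes). Cdkn2a, a locus of growth inhibitors, carried both (1320 and 769 bp of H3K4me3, 501 and 657 bp of H3K27me3). Its H3K27me3 peaks stood at opposite ends of the gene in the 2 replicates. The inhibitor gene Cdkn1c (2752 and 5564 bp) and E2f6, a repressor (501 and 629 bp), carried H3K27me3 alone.

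Most genes of the m6A machinery, which acts on RNA, and of several lists of chromatin regulators carried H3K4me3 alone, against 22.1% of all genes. Of 20 m6A machinery genes 18 did, of 17 H3K4 methylases and demethylases 13, and of 15 genes of PRC2 and the H3K27 demethylases 9, with none of the other members of these lists carrying H3K27me3 alone or both. Jarid2, a PRC2 cofactor, had 3001 and 4121 bp of H3K4me3, and Ezh2, the catalytic subunit, 2275 and 2391 bp. The PRC1 list differed in its Cbx genes. Of its 21 genes 10 carried H3K4me3 alone (47.6%), Cbx2 was among those with both and Cbx8 carried H3K27me3 alone (5927 and 4228 bp). Cbx2 had 1043 and 636 bp of H3K4me3 and 1690 and 1783 bp of H3K27me3, while Cbx7, the PRC1 subunit known as typical of mESCs, had H3K4me3 alone (1440 and 1201 bp). Among 13 DNA methylation and demethylation genes Tet3 carried both, with H3K4me3 of 501 and 1712 bp and H3K27me3 of 3876 and 7346 bp. The related Tet1 and Tet2 were among 7 with H3K4me3 alone, at 1951 and 1811 bp and at 2474 and 1676 bp.

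The lists of potassium channel genes and of glutamate and GABA receptor genes held a larger share with H3K27me3 alone than all genes did. H3K27me3 alone was carried by 24 of 92 potassium channel genes (26.1%) and 14 of 47 glutamate and GABA receptor genes (29.8%), against 5.82% of all genes. It was carried by 16 of 57 clustered protocadherins (28.1%), but by 3 (5.26%) with windows of 500 bp, against 3.96% of all genes, and by 5 (8.77%) in the wider 50% of each list, against 4.96% of all genes. Kcnh2, a cardiac channel gene, had 3985 and 3867 bp and the GABA receptor gene Gabbr2 2834 and 2744 bp. The protocadherin genes of the alpha cluster share their higher-coordinate end, so these calls are not independent. Kcnab2 and Grik4 were the members with both marks, each on peaks of 501 to 1309 bp. At Kcnab2 the marks stood apart at the same end, by 142 and 555 bp. At Grik4 they overlapped in replicate 1 and stood at opposite ends, 424461 bp apart, in replicate 2.

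Neither mark was carried by 49.2% of all protein-coding genes, and by larger shares of several lists of terminal and germ cell types. Of 1106 olfactory receptor genes 1098 carried neither mark (99.3%), of 353 vomeronasal receptor genes 352, of 24 germline genes 19 (79.2%) and of 14 genes of the 2-cell-like state 13. Neither mark was carried by 82 of 93 cytochrome P450 genes (88.2%), 74 of 86 interleukin and chemokine genes (86.0%) and 36 of 49 keratin genes (73.5%), while 5, 2 and 3 genes of these lists carried H3K27me3 alone. The olfactory receptor gene with H3K4me3 alone was Olfr94 (959 and 501 bp). Of 63 replication-dependent histone genes 42 carried neither mark (66.7%) and 11 H3K4me3 alone, although 36 carried H3K27ac in both knockout lists, against 14.4% of all genes. Neighbouring genes can share a peak, so these calls may not be independent. Of 29 imprinted genes 4 carried H3K4me3 alone (13.8%, against 22.1% of all genes) and 5 H3K27me3 alone (17.2%, against 5.82%), with none carrying both. Of 367 zinc finger genes named Zfp 93 carried H3K4me3 alone (25.3%, near the 22.1% of all genes), 5 H3K27me3 alone and 3 both (Zfp316, Zfp688 and Zfp768).

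H3K27ac, a mark of active promoters and enhancers, was not used to make the classes. The knockout lists called H3K27ac at 22.3% and 31.1% of the 148 genes with both marks, at 62.2% and 62.4% of genes with H3K4me3 alone and at 4.55% and 3.77% of genes with H3K27me3 alone. Genes with neither mark had it at 6.56% and 6.23%, and all protein-coding genes at 22.1% and 22.0%. Genes with both marks thus lay between the classes with 1 mark in both lists. Called in both knockout lists of H3K27ac were 8.78% of genes with both marks, 47.6% of genes with H3K4me3 alone and 0.628% of genes with H3K27me3 alone, against 14.4% of all genes. The H3K27ac peaks of genes with both marks were narrow, with medians of 633 and 501 bp, against 1027 and 1045 bp at genes with H3K4me3 alone. The control lists called H3K27ac at 11.5% and 10.1% of the genes with both marks, at 47.7% and 41.1% of genes with H3K4me3 alone and at 3.85% and 2.20% of genes with H3K27me3 alone, against 17.4% and 14.4% of all genes. Called in both control lists were 3.38% of genes with both marks, against 9.08% of all genes. These are shares of genes in 2 lists per condition and were not tested.

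**Figure D4:**
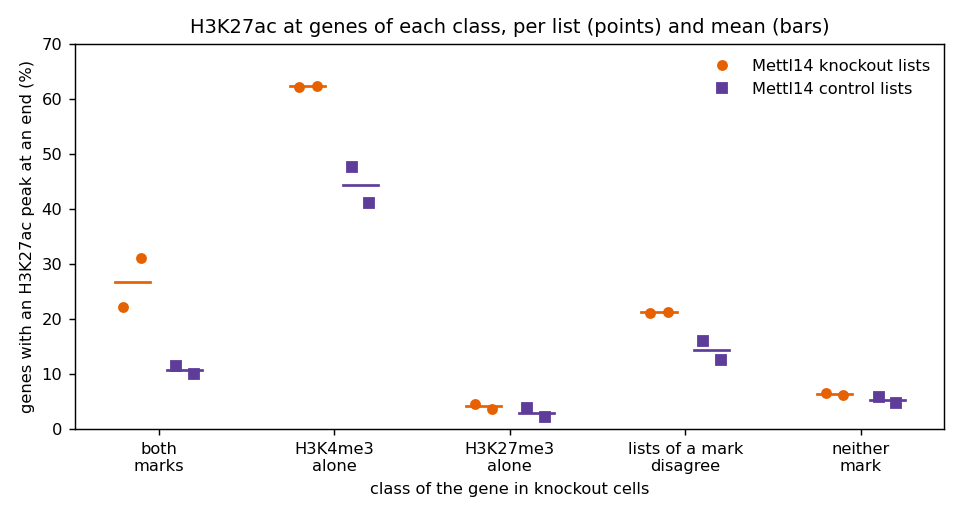
The share of genes with an H3K27ac peak at an end (y axis, %) is drawn for each class of gene in knockout cells, with 1 point per knockout list (circles) or control list (squares) and a bar at the mean of the 2. Genes with H3K4me3 alone stand highest, at 62.2% and 62.4% in knockout lists and 47.7% and 41.1% in control lists, and genes with H3K27me3 alone lowest.

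Genes with both marks were far more numerous in the knockout lists than in the control lists as deposited, and the groups overlapped at equal list length. Taking lists of the same replicate number, 509 and 564 genes had both marks in knockout cells, against 36 and 52 in control cells. The means were 536.5 ± 38.9 against 44 ± 11.3 genes (SD, n = 2 each), a log2 difference of 3.63 or 12.4-fold. The groups did not overlap (exact two-sided permutation p = 0.333, the smallest possible). With every list at the 2431 widest peaks, the length of the shortest, the counts were 22 and 33 against 12 and 30, a log2 difference of 0.51 with overlapping groups (exact permutation p = 0.667). The control lists were shorter, with 2859 and 2431 H3K4me3 peaks and 6312 and 7203 H3K27me3 peaks. The cut to equal length keeps the widest peaks, while genes with both marks had narrower peaks than genes with 1 mark. It thus cannot give the part of list length in the difference, which was not tested. In the wider 50% of each list the counts were 117 and 132 against 12 and 17, a log2 difference of 3.12. In all 4 control lists 0 genes carried both marks, 0.0% of 21887, where H3K4me3 was called in both lists at 3.07% and H3K27me3 at 3.62%.

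**Figure D5:**
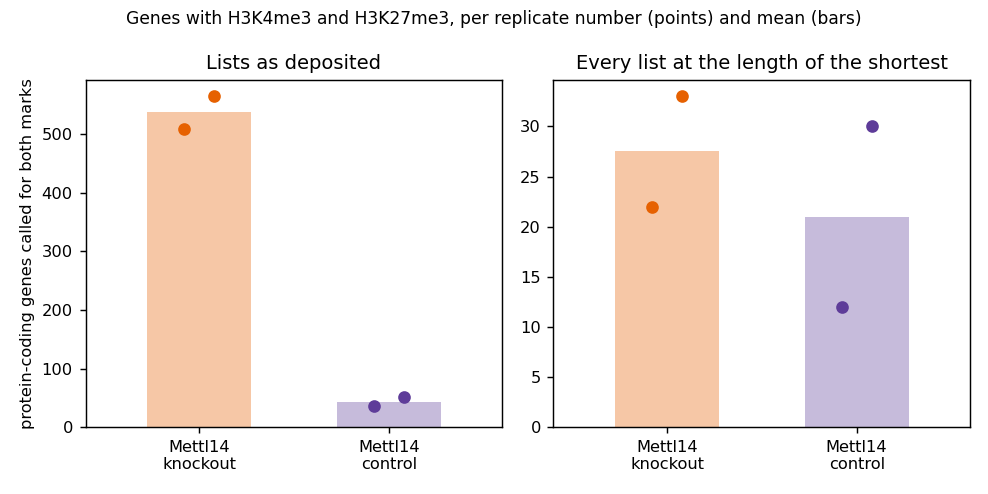
Protein-coding genes called for both marks (y axis, number of genes) are drawn per replicate number (points) with their mean (bars), for knockout and control cells, with the lists as deposited at the left and at the length of the shortest list at the right. The points are 509 and 564 against 36 and 52 at the left, and 22 and 33 against 12 and 30 at the right, where the groups overlap.

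In control cells H3K4me3 was called in both lists at 2 of the 148 genes, in 1 at 20 and in neither at 126. The 126 are 85.1% of the 148, near the 87.0% of all genes without a control H3K4me3 call. H3K27me3 was called in both control lists at 24 (16.2%, against 3.62% of all genes), in 1 at 62 and in neither at 62 (41.9%, against 88.1% of all genes). By the same rule applied to the control lists, 23 of the 148 carried H3K27me3 alone, 2 H3K4me3 alone, 73 were split and 50 carried neither. Of the 4846 genes with H3K4me3 alone in knockout cells, both control lists called H3K4me3 at 623, 1 list at 1567 and neither at 2656. Of the 1274 genes with H3K27me3 alone, both control lists called H3K27me3 at 375, 1 list at 527 and neither at 372. No gene with H3K27me3 alone in knockout cells had H3K4me3 in both control lists, and 2 genes with H3K4me3 alone had H3K27me3 in both. Over all peaks of a list, at gene ends or not, H3K4me3 peaks that touched an H3K27me3 peak numbered 402 and 447 in knockout lists (4.94% and 5.55%), against 1.26% and 1.93% of control H3K4me3 peaks.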

How the data were processed

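ChIP-seq peak lists of H3K4me3, H3K27me3 and H3K27ac were used, 2 Mettl14 CKO and 2 Mettl14 Control libraries per mark, grouped by their titles. The submitters' processing notes name build mm10 and the tools Bowtie2 2.4.1, HOMER, SAMtools, CASAVA and Trimmomatic 0.38, without their roles. The sources used here give neither the caller's settings nor the use of the inputs and of the spike-in chromatin. The authors deposited 1 BED list per library, so replicates were called separately. Its deposited score column holds the constant 1 and ranks nothing. Peak positions and widths, as deposited by the authors, are the measurements, and no list holds heights or read numbers.

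Gene spans came from a RefSeq table of GRCm38.p6, the assembly of mm10, without strand or exons. An overlap needed 1 bp, and widths are those of the widest peak touching a window. Chromosomes 1 to 19, X and Y were used. Log2 counts of genes and shares of peaks were compared by exact two-sided permutation over lists (n = 2 each). No feature-wise model was fitted. The counting was tested on simulated data. Computations used Python 3.11.15, pandas 2.3.3 and numpy 2.4.6.

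Named genes are Mettl14 and Mettl3, the 10 genes of each marked class with the widest peaks by the narrowest list, and up to 6 members per class of 47 gene lists in alphabetical order, without predicted genes and clones. Some genes that this rule names are not reported here. Members and lists were chosen with earlier results of these data known. Alternatives were other windows, the transcription start alone, calls in at least 1 list, the wider peaks, equal list length, a larger overlap, genes with unshared windows, and leaving out each list.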

Additional observations from a re-analysis of the deposited data

How the results depend on the processing

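The number of genes with both marks depended most on the calling rule. Against 148 genes with 2 lists required, it was 1074 with calls in at least 1 list, 65 with windows of 500 bp, 331 with windows of 2500 bp, 31 in the wider 50% of each list, and 67 among the 12067 genes whose windows touch no other gene's. With 1 of the 4 lists left out it was 271 to 304, since fewer calls are then required. Genes with H3K27me3 alone numbered 2843 with calls in at least 1 list, 648 among genes with unshared windows, and 1413 to 2089 with 1 list left out. Genes with H3K4me3 alone numbered 3143 in the wider 50% of each list and 1772 among genes with unshared windows. The number of genes with neither mark stayed within 1.5 times of its value in each alternative run.

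The log2 difference in genes called between H3K4me3 and H3K27me3 lay between 0.86 (unshared windows) and 1.62 (500 bp), and the difference in the share of peaks at gene ends between 17.5 and 49.6 percentage points. The log2 difference in genes with both marks between knockout and control lay between 0.51 (equal list length) and 4.08. With the replicate number as a block, the values were 1.26, 44.1 points and 3.63, with an exact permutation p = 0.5, the smallest that 2 pairs allow. The numbers of the H3K4me3 and H3K27me3 lists are not shown to pair the samples, since the differences between replicates correlated at 0.0329 over 21887 genes, and crossing the numbers gave a log2 difference of 4.05.

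Of 42 gene lists with more genes of 1 single-mark class than of the other, 1 (imprinted genes) turned that order under 1 of 4 alternatives. The cause of these shifts was not tested. Without heights or read numbers, a gene without a call can be unmarked or under the caller's threshold.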

Other observations

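Further families were chosen after the genes with both marks had been seen, so their counts support nothing and are given as values. Of all genes 0.676% carried both marks, 22.1% H3K4me3 alone and 5.82% H3K27me3 alone. Of 9 plexin genes, which encode semaphorin receptors, 3 carried both marks (Plxna1, Plxna2 and Plxnc1), and none carried 1 mark alone. Plxna2 had H3K4me3 peaks of 627 and 895 bp and H3K27me3 peaks of 1495 and 501 bp, and Plxnc1 had 916 and 1066 bp of H3K4me3 and 501 and 3098 bp of H3K27me3. Of 20 semaphorin genes Sema3f carried both, 2 carried H3K4me3 alone and 3 H3K27me3 alone.

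Of 54 receptor tyrosine kinase genes Egfr, Erbb2 and Igf1r carried both marks. H3K4me3 alone was carried by 7 (13.0%, Kit and Epha2 among them) and H3K27me3 alone by 13 (24.1%, Ret and Fgfr3 among them). Igf1r, the receptor of insulin-like growth factor 1, had H3K4me3 peaks of 1220 and 2724 bp and H3K27me3 peaks of 647 and 1744 bp. Of 37 genes listed as immediate early and ERK feedback genes, a list that also holds Id1, Id2, Id3 and Id4, Dusp5, Egr1 and Id3 carried both marks. In that list 7 genes carried H3K4me3 alone (Spry1, Spry2 and Ier2 among them) and 7 H3K27me3 alone (Fos, Fosb and Egr3 among them). Each class made up 18.9% of the list, against 22.1% of all genes for H3K4me3 alone and 5.82% for H3K27me3 alone. Egr1 had H3K4me3 peaks of 626 and 704 bp and H3K27me3 peaks of 1246 and 4611 bp in knockout cells, and in control cells H3K27me3 peaks of 762 and 501 bp with no H3K4me3 peak. Of all genes 87.0% had no H3K4me3 call in the control lists.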
